A study of Mus musculus with 30 samples.

Results

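The difference between the responses of the mouse melanoma clones 14559TN and 13TN to combined RAF and MEK inhibition was taken from 12 libraries of a series of 30, chosen by their clone names. It was computed for each gene as the response of 14559TN (treated over untreated, log2) minus the response of 13TN. The 4 groups were treated 14559TN, untreated 14559TN, treated 13TN and untreated 13TN, each with 3 samples, called tumours below although the labels do not say that they came from separate animals. Both clones came from YUMM1.7, a mouse melanoma line, and the strain label is C57BL/6. They had been isolated with CaTCH, a barcode-based way of pulling single clones out of a mixed population, and were grown under the skin of mice. Treated tumours carry the label RAFi/MEKi, with no agent, dose or duration given in the sources used here. The titles of the 13TN samples also carry the word Depleted, and neither that word nor the letters TN is explained by the labels. Tumours were broken up with collagenase, stained for CD45, a pan-immune surface protein, and the cancer cells were recognised by strong GFP before RNA was extracted. Each clone is a single clone, so the spread used in every test is that between tumours and not that between clones.

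RAF and MEK are consecutive kinases that carry growth signals from RAS to the kinase ERK, and melanomas with an activating BRAF mutation depend on this route. ERK switches on its own brakes, the Sprouty proteins and dual-specificity phosphatases, together with the ETS factors Etv1, Etv4 and Etv5 and cyclin D1. When the route is blocked, these outputs usually fall, cells leave the cell cycle, and signalling can later return through release of the brakes.

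The 12 libraries held 3237350 to 4620473 counts (median 3938210), and 15632 to 16590 genes had at least 1 count. Values are counts of reads near transcript 3′ ends, given below as CPM, counts scaled to a common library size with TMM factors. Means are given ± SD over 3 tumours, and gene positions are on GRCm38. The melanocyte markers Tyr, Tyrp1 and Dct had no count in any of the 12 libraries, where a count of 0 allows a level of up to 0.649 to 0.927 CPM (3 counts per library, counting error only). Sox10 did not exceed 0.308 CPM, and Mitf, the melanocyte master factor, was at 51.0 to 67.9 CPM. Collagen and other fibroblast marker genes summed to 10262 to 16423 CPM in treated 14559TN, 8971 to 9897 CPM in untreated 14559TN, 8420 to 9471 CPM in treated 13TN and 3969 to 4873 CPM in untreated 13TN. Macrophage markers summed to 26.1 to 139 CPM across the 12 libraries and lymphocyte markers to at most 2.84 CPM. In sorted bulk RNA, fewer cells of a type and less RNA per cell cannot be told apart.

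Responses that were called in both clones nearly always ran in the same direction, and few genes had a called difference in response. Of 13286 genes tested, 59 had a response difference at an adjusted p under 0.05 (edgeR quasi-likelihood test, Benjamini-Hochberg adjustment over all 13286 genes), which is 0.444% of those tested. The difference was above 0 for 35 of them (0.263%) and below 0 for 24 (0.181%). An unadjusted p under 0.05 was reached by 1177 genes (8.86%). By comparison, the response within 14559TN was called for 3771 genes (28.4%), 1647 higher (12.4%) and 2124 lower (16.0%), and the response within 13TN for 4120 genes (31.0%), 1809 higher (13.6%) and 2311 lower (17.4%). Both responses were called for 2514 genes, which is 66.7% of the 14559TN calls and 61.0% of the 13TN calls. Of these, 2497 moved in the same direction, 995 higher and 1502 lower, and 17 in opposite directions. The untreated clones differed at 1486 genes (11.2%) and the treated clones at 2102 genes (15.8%).

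**Figure D1:**
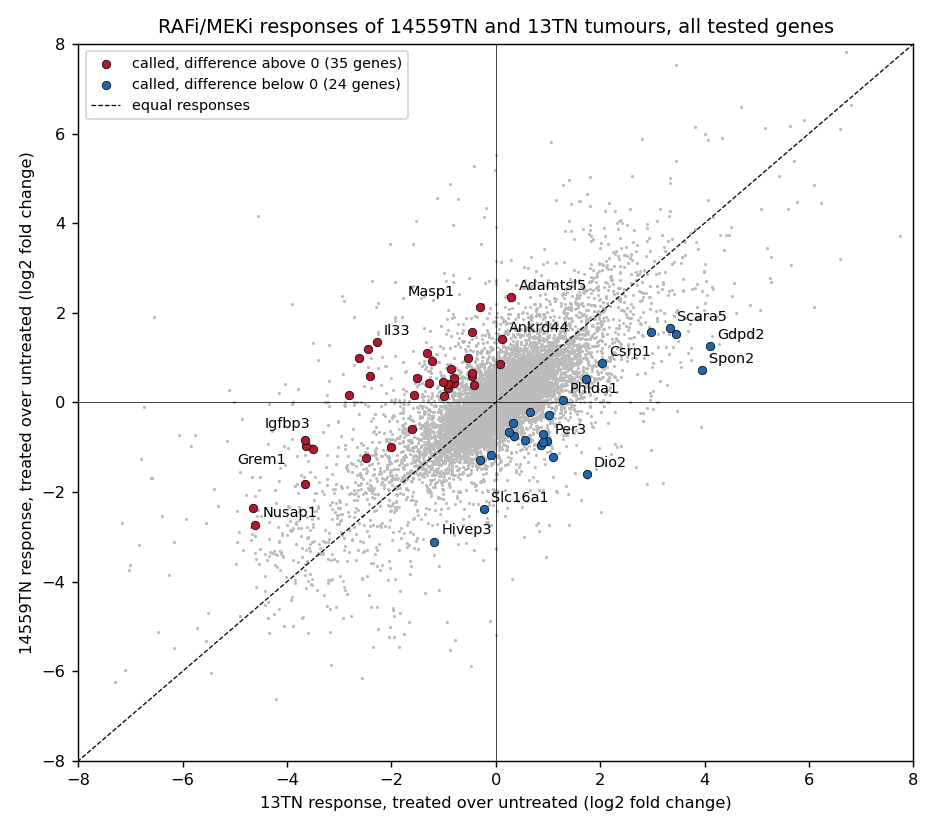
Response of each of 13286 tested genes to RAFi/MEKi, as log2 fold change of treated over untreated tumours, in 14559TN (vertical axis) against 13TN (horizontal axis). Grey points are all genes, red points the 35 genes called with a difference above 0, blue points the 24 called below 0, and the dashed line marks equal responses; the called genes lie to either side of that line.

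The 59 differences had sizes of 0.77 to 3.63 on the log2 scale, with a median of 1.67. In 15 genes the clones moved in opposite directions, both responses being called. In 16 genes both responses were called in the same direction, and in 15 of these the 13TN response was the larger. In 13 genes only the 14559TN response was called and in 15 only the 13TN response. Over all 59, the fitted response was larger in 13TN for 41 genes and in 14559TN for 18. In 33 genes the clones differed with drug and were not called different without it, in 15 the reverse held, and in 11 they differed in both states. Treated and untreated tumours did not overlap in either clone for 38 of the 59. The 59 were picked by a test on these same values, and the share over all genes is not given here. That count is therefore a description and adds no support. Each of the 12 libraries was left out in turn, and 19 genes, 11 above 0 and 8 below, were called in all 12 of those fits. The omissions that cost most calls were untreated 14559TN replicate 1, without which 28 of the 59 remained, and untreated 14559TN replicate 2 and untreated 13TN replicate 1, without each of which 31 remained. Below, the fits without a library are these 12, and a p given beside their number is the largest among them. The precision behind these counts depended on the level of a gene. The median standard error of the difference was 0.22 for the 4235 genes averaging at least 50 CPM, 0.39 for the 6231 genes between 5 and 50 CPM and 1.02 for the 2820 genes below 5 CPM. A 95% interval thus spanned about 0.43, 0.76 and 2.00 log2 units to either side in these classes. A gene that was not called is therefore not shown to have responded alike.

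The smallest adjusted p belonged to Slc16a1 (chr3:104638668-104658462, plus strand), which encodes MCT1, the proton-linked carrier of lactate and pyruvate across the plasma membrane. Slc16a1 was at 7.95, 8.15 and 5.43 CPM in treated and 40.1, 34.1 and 38.8 CPM in untreated 14559TN tumours, and at 73.1, 69.4 and 71.5 CPM in treated and 92.8, 75.2 and 83.7 CPM in untreated 13TN tumours. Treated 14559TN lay far below the other 3 groups, with no overlap. The response was -2.38 (SE 0.20, adjusted p = 1.90e-10) in 14559TN and -0.23 (SE 0.16, adjusted p = 0.292) in 13TN, and the difference -2.14 (SE 0.26, adjusted p = 2.47e-05). It was called in each of the 12 fits without a library, with an adjusted p of at most 5.01e-04. Por and Camkk2 were likewise called lower in 14559TN and not in 13TN. Por, the reductase that hands electrons to microsomal cytochrome P450 enzymes, was at 81.8, 75.2 and 69.7 CPM in treated and 185, 175 and 192 CPM in untreated 14559TN tumours, and at 169, 188 and 212 CPM in treated and 245, 203 and 258 CPM in untreated 13TN tumours. Its 14559TN response was -1.28 (SE 0.14, adjusted p = 1.79e-08), and the difference was -0.98 (SE 0.19, adjusted p = 0.00997). Camkk2, a kinase upstream of the energy sensor AMPK, averaged 137 ± 22 CPM in treated and 311 ± 48.7 CPM in untreated tumours in 14559TN and 152 ± 18.4 CPM in treated and 163 ± 10.1 CPM in untreated tumours in 13TN. Camkk2 differed by -1.08 (SE 0.23, adjusted p = 0.0178). The untreated clones were called different (adjusted p = 9.69e-05) and the treated clones were not (adjusted p = 0.617). The call for Camkk2 was lost without untreated 14559TN replicate 1, untreated 13TN replicate 1 or treated 14559TN replicate 3, at an adjusted p of 0.0802, 0.0562 and 0.0643. Pank1, a pantothenate kinase of coenzyme A synthesis, went the other way, with 0.46 (SE 0.23, adjusted p = 0.133) in 14559TN, -1.01 (SE 0.24, adjusted p = 0.00146) in 13TN and a difference of 1.47 (SE 0.33, adjusted p = 0.0289), called in 3 of the 12 fits (adjusted p up to 0.131).

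**Figure D2:**
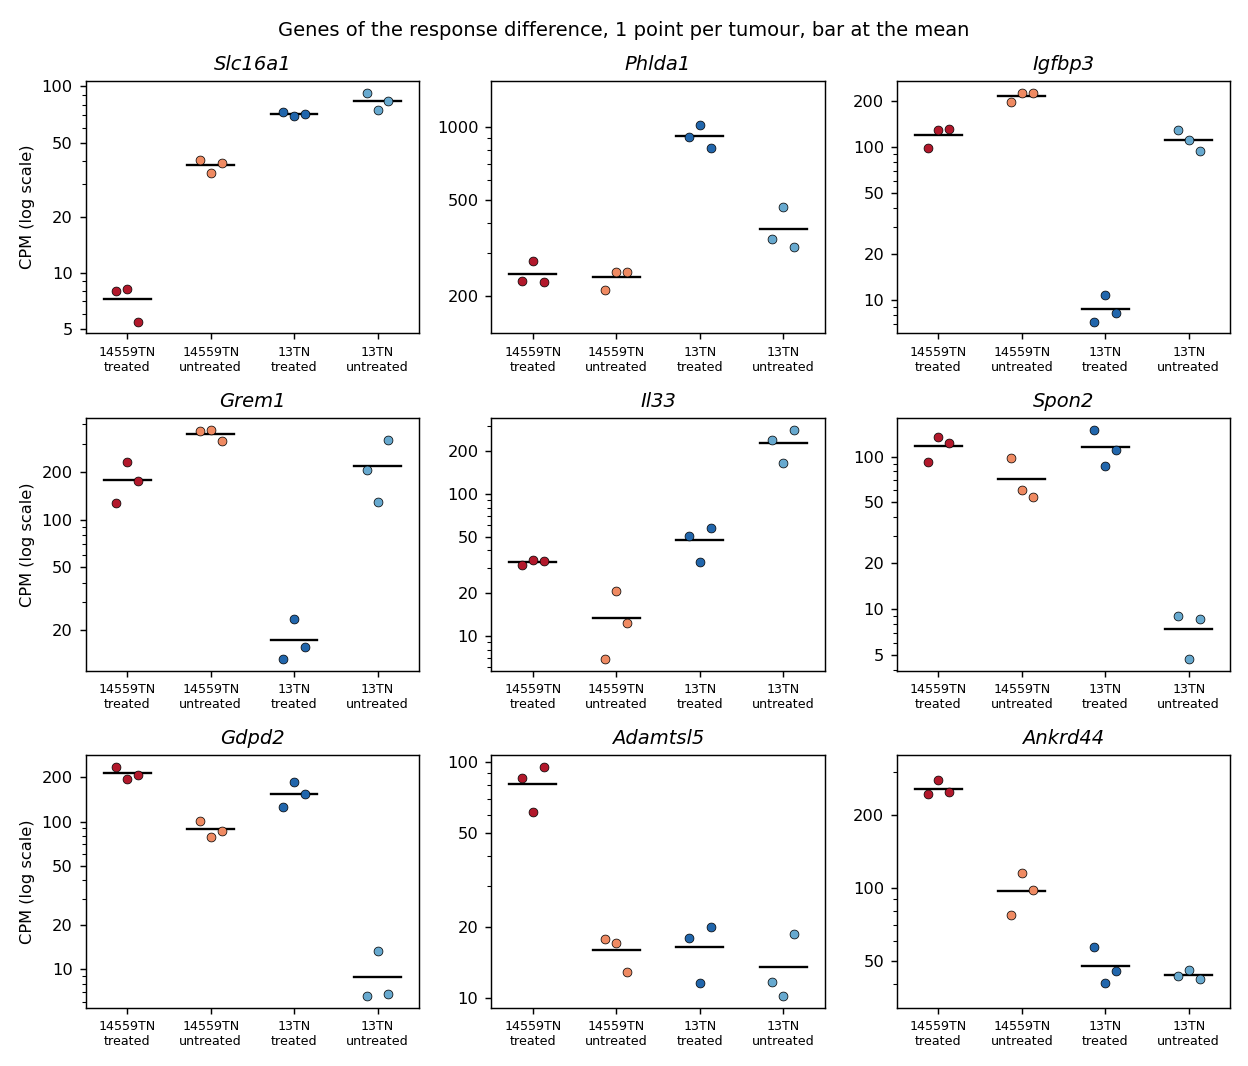
Level of 9 genes in CPM (log scale) in the 12 tumours, by group, with 1 point per tumour and a bar at the mean of the 3 tumours. Slc16a1 was at 5.43 to 8.15 CPM in treated 14559TN and at 34.1 CPM or more elsewhere, while Igfbp3 and Grem1 were lowest in treated 13TN and Spon2 and Gdpd2 in untreated 13TN.

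Among the outputs of ERK, Phlda1 and Spry4 were lower in treated 14559TN than in treated 13TN, and Phlda1 alone passed the test of the difference. Phlda1, a pleckstrin homology-like protein induced by ERK (chr10:111506286-111508645, plus strand), was at 231, 280 and 229 CPM in treated and 212, 252 and 252 CPM in untreated 14559TN tumours, and at 906, 1020 and 815 CPM in treated and 344, 466 and 320 CPM in untreated 13TN tumours. It was not called in 14559TN (0.05, SE 0.15, adjusted p = 0.838) and rose in 13TN by 1.28 (SE 0.15, adjusted p = 6.40e-08), a difference of -1.23 (SE 0.21, adjusted p = 0.00307). Phlda1 remained called without any single library, at an adjusted p of at most 0.0153. Spry4, a Sprouty brake, was at 19.3, 36.6 and 22.8 CPM in treated and 44.2, 30.4 and 40.8 CPM in untreated 14559TN tumours, and at 80.1, 81.0 and 85.6 CPM in treated and 31.9, 43.2 and 61.5 CPM in untreated 13TN tumours. Treated 13TN held the 3 highest Spry4 values of the 12, and the difference was -1.40 (SE 0.35, adjusted p = 0.0561), which missed the threshold. Spry1 averaged 17.1 ± 7.78 CPM in treated and 15.7 ± 2.97 CPM in untreated tumours in 14559TN and 34.8 ± 10.1 CPM in treated and 4.25 ± 3.15 CPM in untreated tumours in 13TN, with a difference of -2.84 (SE 0.74, adjusted p = 0.0867). The Etv1 responses were 0.00 (SE 0.20, adjusted p = 1.00) in 14559TN and 0.95 (SE 0.20, adjusted p = 6.35e-04) in 13TN, with a difference of -0.95 (SE 0.28, adjusted p = 0.153). Etv4 fell in both clones, with responses of -3.59 (SE 0.35, adjusted p = 3.43e-08) in 14559TN and -2.35 (SE 0.32, adjusted p = 3.79e-06) in 13TN. Ccnd1, which encodes cyclin D1, also fell in both, with -1.85 (SE 0.19, adjusted p = 7.82e-09) in 14559TN and -2.14 (SE 0.19, adjusted p = 2.62e-10) in 13TN. The differences were -1.24 (SE 0.47, adjusted p = 0.337) for Etv4, -0.90 (SE 0.31, adjusted p = 0.239) for Etv5 and 0.28 (SE 0.26, adjusted p = 0.840) for Ccnd1, and none was called. Dusp6 was not called in either clone, at 31.8, 127 and 101 CPM in treated and 75.9, 81.1 and 109 CPM in untreated 14559TN tumours, and at 198, 249 and 105 CPM in treated and 105, 135 and 98.5 CPM in untreated 13TN tumours. Of the 18 tested ERK output genes, 1 was called in the difference, beside 0.444% over all genes. Their median difference was -0.58 against -0.003 over all genes, and 12 of 18 lay below 0, beside 6664 of 13286. Within 14559TN 2 of them rose and 7 fell, and within 13TN 5 rose and 6 fell. Over all genes, 12.4% rose and 16.0% fell in 14559TN, and 13.6% rose and 17.4% fell in 13TN. The 16 tested genes of the RAS, RAF, MEK and ERK chain itself included no call, with a median difference of -0.03.

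Among secreted antagonists of growth factors, Igfbp3 and Grem1 fell in both clones and further in 13TN. Igfbp3, which binds insulin-like growth factors and limits their access to the receptor (chr11:7206086-7213923, minus strand), was at 98.8, 130 and 132 CPM in treated and 199, 228 and 225 CPM in untreated 14559TN tumours, and at 7.22, 10.9 and 8.31 CPM in treated and 129, 112 and 94.1 CPM in untreated 13TN tumours. Treated 13TN stood apart from the other 3 groups. The Igfbp3 responses were -0.85 (SE 0.23, adjusted p = 0.00588) in 14559TN and -3.66 (SE 0.28, adjusted p = 1.53e-10) in 13TN, and the difference was 2.81 (SE 0.36, adjusted p = 1.81e-04). Grem1, a secreted antagonist of bone morphogenetic proteins (BMPs; chr2:113746164-113758646, minus strand), was at 127, 230 and 175 CPM in treated and 363, 371 and 314 CPM in untreated 14559TN tumours, and at 13.1, 23.6 and 15.6 CPM in treated and 206, 129 and 320 CPM in untreated 13TN tumours. Its responses were -0.98 (SE 0.26, adjusted p = 0.00576) in 14559TN and -3.64 (SE 0.30, adjusted p = 1.80e-09) in 13TN, with a difference of 2.67 (SE 0.39, adjusted p = 0.00173). Both genes were called without any single library, at an adjusted p of at most 0.00308 for Igfbp3 and 0.00808 for Grem1. Igfbp4, another binding protein of the same family (chr11:99041244-99054392, plus strand), moved in opposite directions. Igfbp4 was at 3960, 5701 and 3295 CPM in treated and 7131, 6588 and 7411 CPM in untreated 14559TN tumours, and at 3525, 4323 and 4119 CPM in treated and 1800, 2768 and 1782 CPM in untreated 13TN tumours. Untreated 13TN was the lowest group, and the treated clones were not called different (adjusted p = 0.800). Its responses were -0.71 (SE 0.23, adjusted p = 0.0250) in 14559TN and 0.91 (SE 0.23, adjusted p = 0.00400) in 13TN, with a difference of -1.62 (SE 0.33, adjusted p = 0.0197). The Igfbp4 call held in 6 of the 12 fits without a library (adjusted p up to 0.0814). Angptl2, a secreted angiopoietin-like protein, was at 194, 255 and 204 CPM in treated and 537, 491 and 521 CPM in untreated 14559TN tumours, and at 102, 78.9 and 88.4 CPM in treated and 455, 413 and 634 CPM in untreated 13TN tumours. The untreated clones were not called different in Angptl2 (adjusted p = 0.897), treated 13TN was lowest, and the difference was 1.24 (SE 0.22, adjusted p = 0.00416). Slc14a1, a urea transporter, showed the same form, averaging 41.5 ± 12 CPM in treated and 85.3 ± 9.63 CPM in untreated tumours in 14559TN and 4.78 ± 0.995 CPM in treated and 54.4 ± 19.0 CPM in untreated tumours in 13TN, with a difference of 2.47 (SE 0.51, adjusted p = 0.0223) that held in 6 of the 12 fits (adjusted p up to 0.0783).

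The genes around these were examined as lists chosen after their values had been seen, and no test was made of the lists. Of 11 tested genes of the insulin-like growth factor axis, Igfbp3 and Igfbp4 were called and 9 were not, beside 0.444% called over all genes, and the median difference was 0.03, against -0.003 over all genes. The ligand Igf1 rose in both clones and was at 54.2, 66.0 and 46.3 CPM in treated and 2.03, 5.84 and 4.29 CPM in untreated 14559TN tumours, and at 5.86, 2.72 and 3.02 CPM in treated and 0.243, 0 and 0.615 CPM in untreated 13TN tumours. The receptor Igf1r was called in neither response. Of 11 tested genes of BMP signalling, only Grem1 was called, beside the same 0.444%. Id1, a direct BMP target, was at 3.12, 9.40 and 8.28 CPM in treated and 16.0, 19.4 and 25.5 CPM in untreated 14559TN tumours, and at 31.6, 71.0 and 26.9 CPM in treated and 33.4, 30.8 and 28.6 CPM in untreated 13TN tumours. Id1 fell in 14559TN and was not called in 13TN, and its difference of -2.00 (SE 0.51, adjusted p = 0.0675) missed the threshold. The ligand Bmp4 averaged 20.5 ± 4.56 CPM in treated and 5.58 ± 2.31 CPM in untreated tumours in 14559TN and 1.05 ± 0.844 CPM in treated and 1.84 ± 0.843 CPM in untreated tumours in 13TN, with a difference of 2.72 (SE 0.83, adjusted p = 0.165).

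Spon2, Gdpd2, Scara5, Adamts9 and Dhrs3 stood lower in untreated 13TN than in untreated 14559TN and rose further in 13TN under drug. Spon2, a secreted spondin of the matrix (chr5:33198184-33218455, minus strand), was at 92.0, 134 and 123 CPM in treated and 97.7, 60.8 and 54.0 CPM in untreated 14559TN tumours, and at 150, 86.4 and 110 CPM in treated and 9.01, 4.71 and 8.61 CPM in untreated 13TN tumours. Only untreated 13TN lay apart. Spon2 rose in 13TN by 3.95 (SE 0.43, adjusted p = 1.61e-07), was not called in 14559TN (0.72, SE 0.35, adjusted p = 0.136), and differed by -3.24 (SE 0.55, adjusted p = 0.00533). Gdpd2, a glycerophosphodiester phosphodiesterase family member, was at 235, 194 and 206 CPM in treated and 101, 78.7 and 86.0 CPM in untreated 14559TN tumours, and at 125, 185 and 153 CPM in treated and 6.57, 13.4 and 6.77 CPM in untreated 13TN tumours. It rose in both clones, and the treated clones were not called different. The Gdpd2 difference was -2.84 (SE 0.53, adjusted p = 0.0125), and it was lost only without untreated 13TN replicate 1, at an adjusted p of 0.0525. Scara5, a scavenger receptor that takes up ferritin, was at 442, 439 and 438 CPM in treated and 129, 123 and 165 CPM in untreated 14559TN tumours, and at 267, 229 and 264 CPM in treated and 24.3, 25.8 and 25.5 CPM in untreated 13TN tumours. Its responses were 1.66 (SE 0.19, adjusted p = 1.07e-07) in 14559TN and 3.33 (SE 0.22, adjusted p = 5.72e-13) in 13TN, with a difference of -1.67 (SE 0.28, adjusted p = 0.00306). The treated clones still differed in Scara5, by 0.80 (adjusted p = 0.00309), while in Spon2, Adamts9 and Dhrs3 they were not called different. Adamts9, a secreted metalloprotease that cleaves proteoglycans, and Dhrs3, a retinaldehyde reductase, were the other members. Adamts9 averaged 41.0 ± 11.4 CPM in treated and 14.2 ± 0.894 CPM in untreated tumours in 14559TN and 50.6 ± 20.9 CPM in treated and 4.58 ± 1.15 CPM in untreated tumours in 13TN, with a difference of -1.93 (SE 0.41, adjusted p = 0.0184). Without untreated 14559TN replicate 1, untreated 13TN replicate 1 or treated 13TN replicate 3, the Adamts9 call was lost at an adjusted p of 0.0555, 0.0716 and 0.0630. Dhrs3 averaged 78.5 ± 19.6 CPM in treated and 26.6 ± 4.76 CPM in untreated tumours in 14559TN and 93.2 ± 19.2 CPM in treated and 11.7 ± 3.29 CPM in untreated tumours in 13TN, with a difference of -1.41 (SE 0.31, adjusted p = 0.0223), called in 8 of the 12 fits (adjusted p up to 0.0942). Fibroblast markers, given above as sums, were also lowest in untreated 13TN. Within 14559TN 4 of 12 tested fibroblast markers rose, beside 12.4% of all genes, and 1 fell, beside 16.0%. Within 13TN 6 of the 12 rose, beside 13.6% of all genes, and none fell, beside 17.4%. No fibroblast marker was called in the difference. The part of those markers in these results was not tested.

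Csrp1 and Wdfy2 also rose in both clones and further in 13TN, and here the untreated clones were not called different. Csrp1, a LIM-domain protein bound to actin structures, was at 346, 313 and 291 CPM in treated and 166, 194 and 161 CPM in untreated 14559TN tumours, and at 591, 553 and 486 CPM in treated and 144, 140 and 114 CPM in untreated 13TN tumours. Treated 13TN was highest, without overlap, and the difference was -1.17 (SE 0.23, adjusted p = 0.00956), called without any single library. Wdfy2, an endosomal protein, averaged 67 ± 16.4 CPM in treated and 46.6 ± 5.47 CPM in untreated tumours in 14559TN and 183 ± 9.53 CPM in treated and 55.4 ± 4.12 CPM in untreated tumours in 13TN, with a difference of -1.21 (SE 0.26, adjusted p = 0.0197), called in 6 of the 12 fits (adjusted p up to 0.0692). Hivep3, a large zinc finger factor, was the single gene that fell in both clones and more in 14559TN, with -3.11 (SE 0.33, adjusted p = 1.54e-08) in 14559TN and -1.18 (SE 0.28, adjusted p = 0.00169) in 13TN. The Hivep3 difference was -1.93 (SE 0.43, adjusted p = 0.0289), called in 4 of the 12 fits (adjusted p up to 0.0871).

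Genes that rose in 14559TN and were not called in 13TN numbered 7. Ankrd44, an ankyrin repeat protein (chr1:54645340-54926387, minus strand), was at 244, 277 and 248 CPM in treated and 77.4, 115 and 97.8 CPM in untreated 14559TN tumours, and at 56.8, 40.6 and 45.3 CPM in treated and 43.1, 45.6 and 42.2 CPM in untreated 13TN tumours. It rose by 1.41 (SE 0.16, adjusted p = 3.93e-08) in 14559TN, against 0.12 (SE 0.17, adjusted p = 0.613) in 13TN, where the tumours overlapped, and the difference was 1.28 (SE 0.23, adjusted p = 0.00484). Adamtsl5, a matrix protein of the ADAMTS-like family, was at 86.0, 61.8 and 95.7 CPM in treated and 17.8, 17.2 and 12.9 CPM in untreated 14559TN tumours, and at 18, 11.6 and 20.1 CPM in treated and 11.7, 10.2 and 18.8 CPM in untreated 13TN tumours. The 3 treated 14559TN tumours stood well above the other 9, and the difference was 2.04 (SE 0.39, adjusted p = 0.00654). Masp1, a protease of the lectin pathway of complement, averaged 81.8 ± 10.8 CPM in treated and 18.6 ± 4.39 CPM in untreated tumours in 14559TN and 9.69 ± 1.87 CPM in treated and 11.9 ± 3.12 CPM in untreated tumours in 13TN, with a difference of 2.45 (SE 0.52, adjusted p = 0.0223), called in 4 of the 12 fits (adjusted p up to 0.0952). Nedd9, a scaffold of focal adhesion signalling, averaged 46.8 ± 12.7 CPM in treated and 15.7 ± 1.85 CPM in untreated tumours in 14559TN and 9.51 ± 1.58 CPM in treated and 13.1 ± 5.28 CPM in untreated tumours in 13TN and differed by 2.03 (SE 0.42, adjusted p = 0.0153). Its call was lost without untreated 13TN replicate 3 or treated 14559TN replicate 2, at an adjusted p of 0.0916 and 0.0692. Tmem158, a membrane protein induced by RAS, differed by 1.53 (SE 0.31, adjusted p = 0.0149), the chloride cotransporter Slc12a2 by 1.12 (SE 0.25, adjusted p = 0.0305), and Stk3, a kinase of the Hippo pathway, by 0.78 (SE 0.18, adjusted p = 0.0408). Those calls held in 7, 4 and 0 of the 12 fits (adjusted p up to 0.0574, 0.105 and 0.110). The 17 tested YAP and TEAD targets, the output of the Hippo pathway, included no call, with a median difference of 0.02.

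Genes that fell in 13TN and were not called in 14559TN numbered 11. Cdh2, which encodes N-cadherin, was at 26.7, 30.7 and 34.6 CPM in treated and 28.9, 24.9 and 28.5 CPM in untreated 14559TN tumours, and at 4.06, 3.63 and 2.27 CPM in treated and 9.01, 9.92 and 11.1 CPM in untreated 13TN tumours. The responses were 0.16 (SE 0.22, adjusted p = 0.630) in 14559TN and -1.57 (SE 0.29, adjusted p = 8.42e-05) in 13TN, where the level was already lower without drug, and the difference was 1.73 (SE 0.36, adjusted p = 0.0181). Cdh2 was called in 7 of the 12 fits, with an adjusted p of at most 0.0630. Sox9, a neural crest factor, was at 808, 730 and 785 CPM in treated and 702, 788 and 604 CPM in untreated 14559TN tumours, and at 511, 672 and 436 CPM in treated and 1346, 866 and 1017 CPM in untreated 13TN tumours. Untreated 13TN was the highest group and treated 13TN the lowest by mean, overlapping untreated 14559TN, with a difference of 1.15 (SE 0.27, adjusted p = 0.0437) that held in 2 of the 12 fits (adjusted p up to 0.148). Nes, which encodes the neural crest filament protein nestin, differed by 1.21 (SE 0.29, adjusted p = 0.0517) and missed the threshold. Among 10 tested neural crest and glial genes 1 was called, beside 0.444% over all genes, with a median difference of 0.24. Lancl3, a member of the lanthionine synthetase-like family, was at 28.4, 27.8 and 35.1 CPM in treated and 19.3, 21.5 and 21.9 CPM in untreated 14559TN tumours, and at 5.19, 5.22 and 4.03 CPM in treated and 14.4, 10.7 and 16.6 CPM in untreated 13TN tumours, a difference of 2.05 (SE 0.34, adjusted p = 0.00233). Camk1d, a calcium-dependent kinase, was at 97.4, 112 and 109 CPM in treated and 79.7, 91.9 and 85.7 CPM in untreated 14559TN tumours, and at 95.2, 93.2 and 84.9 CPM in treated and 164, 163 and 185 CPM in untreated 13TN tumours. Its difference was 1.22 (SE 0.24, adjusted p = 0.00956), and the treated clones were not called different (adjusted p = 0.415). Tspyl5, a nucleosome assembly family member, stood at low levels, at 6.53, 3.55 and 4.57 CPM in treated and 2.54, 2.46 and 2.27 CPM in untreated 14559TN tumours, and at 0.451, 0.907 and 0.755 CPM in treated and 4.14, 2.98 and 6.46 CPM in untreated 13TN tumours, a difference of 3.61 (SE 0.66, adjusted p = 0.00529). These last 3 genes were called without any single library. Man1a, a mannosidase of the Golgi, differed by 1.72 (SE 0.34, adjusted p = 0.0125), the sorting nexin Snx30 by 1.33 (SE 0.26, adjusted p = 0.00997), and Adam8, a membrane metalloprotease, by 2.97 (SE 0.70, adjusted p = 0.0435), in 10, 10 and 1 of the 12 fits (adjusted p up to 0.0555, 0.0558 and 0.128). Man1a and Snx30 were each lost without untreated 14559TN replicate 1 or untreated 13TN replicate 1. The unnamed gene 8430423G03Rik, at 5.54 CPM or less in every tumour, differed by 3.63 (SE 0.83, adjusted p = 0.0326), called in 3 of the 12 fits (adjusted p up to 0.106).

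Trp53cor1, the long noncoding RNA known as lincRNA-p21 that lies beside Cdkn1a, was also in this class. Trp53cor1 was at 7.95, 6.48 and 7.43 CPM in treated and 4.06, 3.99 and 6.30 CPM in untreated 14559TN tumours, and at 0.902, 0.680 and 1.51 CPM in treated and 4.63, 7.19 and 4.92 CPM in untreated 13TN tumours. It fell in 13TN (-2.42, SE 0.50, adjusted p = 3.05e-04), was not called in 14559TN (0.59, SE 0.41, adjusted p = 0.293), and differed by 3.01 (SE 0.65, adjusted p = 0.0203), called in 6 of the 12 fits (adjusted p up to 0.0727). Its neighbour Cdkn1a, which encodes the cyclin-dependent kinase inhibitor p21, fell in both clones, with -2.25 (SE 0.33, adjusted p = 2.16e-05) in 14559TN and -3.07 (SE 0.34, adjusted p = 3.85e-07) in 13TN, with a difference of 0.82 (SE 0.45, adjusted p = 0.647). Trp53 itself was not called in either clone. Of 19 tested p53 targets none was called in the difference, and the median was 0.01.

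In 8 genes the level was raised in 14559TN and lowered in 13TN. Il33, an alarmin cytokine of the interleukin-1 family (chr19:29925114-29960718, plus strand), was at 31.8, 34.3 and 33.7 CPM in treated and 6.85, 20.6 and 12.4 CPM in untreated 14559TN tumours, and at 50.7, 32.9 and 57.9 CPM in treated and 241, 165 and 284 CPM in untreated 13TN tumours. The untreated clones differed by -4.13 (adjusted p = 1.78e-06) and the treated clones by -0.50 (adjusted p = 0.464). The Il33 responses were 1.35 (SE 0.46, adjusted p = 0.0312) in 14559TN and -2.28 (SE 0.40, adjusted p = 1.32e-04) in 13TN, and the difference was 3.63 (SE 0.60, adjusted p = 0.00533). In Fam171a1 and Rftn2, which encode membrane-associated proteins, the treated clones lay further apart than the untreated ones. Fam171a1 was at 137, 134 and 177 CPM in treated and 112, 103 and 116 CPM in untreated 14559TN tumours, and at 48.0, 49.4 and 51.4 CPM in treated and 77.4, 76.9 and 106 CPM in untreated 13TN tumours. Rftn2 was at 107, 109 and 110 CPM in treated and 85.8, 63.6 and 74.4 CPM in untreated 14559TN tumours, and at 27.5, 22 and 26.4 CPM in treated and 44.6, 46.9 and 41.5 CPM in untreated 13TN tumours. Their differences were 1.24 (SE 0.21, adjusted p = 0.00233) and 1.35 (SE 0.26, adjusted p = 0.00727). All 3 genes were called without any single library. Flna, which crosslinks actin filaments, was at 943, 760 and 787 CPM in treated and 675, 601 and 629 CPM in untreated 14559TN tumours, and at 509, 444 and 435 CPM in treated and 676, 577 and 609 CPM in untreated 13TN tumours. The untreated clones overlapped in Flna and the treated clones did not, with a difference of 0.81 (SE 0.17, adjusted p = 0.0153). Without untreated 14559TN replicate 2, untreated 13TN replicate 1 or treated 14559TN replicate 1, the Flna call was lost at an adjusted p of 0.0551, 0.0634 and 0.0899. The other 4 were Ptchd1 (2.16, SE 0.49, adjusted p = 0.0408), Gpsm1 (1.60, SE 0.38, adjusted p = 0.0408), Hist3h2a (1.05, SE 0.25, adjusted p = 0.0408) and F730043M19Rik (2.41, SE 0.56, adjusted p = 0.0355), called in 1, 2, 0 and 4 of the 12 fits (adjusted p up to 0.125, 0.138, 0.154 and 0.159). Hist3h2a belongs to a histone family of near-identical genes, and its counts are uncertain.

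In 7 genes the level was lowered in 14559TN and raised in 13TN, among them Igfbp4 above and Per3 below. Dio2, the deiodinase that activates thyroid hormone, was at 89.7, 84.0 and 74.5 CPM in treated and 239, 136 and 379 CPM in untreated 14559TN tumours, and at 52.3, 76.4 and 127 CPM in treated and 15.8, 26.8 and 34.5 CPM in untreated 13TN tumours. The untreated clones differed by 3.30 (adjusted p = 1.49e-04), and the treated clones by -0.04 (adjusted p = 0.973). The Dio2 difference was -3.34 (SE 0.69, adjusted p = 0.0289), called in 4 of the 12 fits (adjusted p up to 0.0927). Thbd, which encodes thrombomodulin, an anticoagulant receptor, was at 61.3, 108 and 47.7 CPM in treated and 176, 159 and 178 CPM in untreated 14559TN tumours, and at 140, 111 and 196 CPM in treated and 65.5, 75.4 and 67.7 CPM in untreated 13TN tumours. Its difference was -2.33 (SE 0.45, adjusted p = 0.0153), lost without untreated 13TN replicate 1 or treated 14559TN replicate 1 at an adjusted p of 0.0525 and 0.0501. Thrombomodulin is also made by endothelium, and endothelial markers summed to 48.5 to 67.6 CPM in treated 14559TN, 25.9 to 30.4 CPM in untreated 14559TN, 162 to 201 CPM in treated 13TN and 27.1 to 47.0 CPM in untreated 13TN. Ramp2, a receptor activity-modifying protein, is among these markers and made up most of their sum in treated 13TN. Ramp2 was at 22.8 to 41.5 CPM in treated and 2.27 to 4.61 CPM in untreated 14559TN tumours. In 13TN it was at 146 to 170 CPM in treated and 6.77 to 20.2 CPM in untreated tumours. The other markers ran in both directions between the treated clones. Pecam1 was at 5.71 to 6.68 CPM in treated 14559TN and 2.27 to 5.29 CPM in treated 13TN. Egfl7 was at 5.01 to 8.28 CPM in treated 14559TN and 10.2 to 21.7 CPM in treated 13TN. Tek was at 0 and Cdh5 at no more than 2.79 CPM in any of the 12 libraries. Of 7 tested endothelial markers none was called in the difference, and their part in that of Thbd was not tested. Fam43a was at 45.7, 76.5 and 42.6 CPM in treated and 107, 80.8 and 107 CPM in untreated 14559TN tumours, and at 73.7, 54.7 and 71.8 CPM in treated and 43.3, 44.2 and 48.6 CPM in untreated 13TN tumours. The Fam43a difference was -1.39 (SE 0.26, adjusted p = 0.00577), called without any single library. Map3k6, a kinase of stress signalling, averaged 8.42 ± 2.59 CPM in treated and 16.2 ± 0.751 CPM in untreated tumours in 14559TN and 24.8 ± 4.44 CPM in treated and 13.6 ± 3.75 CPM in untreated tumours in 13TN, with a difference of -1.82 (SE 0.39, adjusted p = 0.0213) that held in 5 of the 12 fits (adjusted p up to 0.0719). The mitochondrial gene mt-Nd2, a subunit of respiratory complex I, differed by -1.78 (SE 0.39, adjusted p = 0.0333), in 4 of the 12 fits (adjusted p up to 0.0981). Nuclear copies of mitochondrial genes can share reads, so the mt-Nd2 value is uncertain. Of other subunits of that complex, mt-Nd1 differed by -0.70 (SE 0.26, adjusted p = 0.301) and mt-Nd5 by -1.28 (SE 0.39, adjusted p = 0.153). Mitochondrial genes made up 0.1114% to 0.1391% of counts in treated 14559TN, 0.1465% to 0.1912% in untreated 14559TN, 0.1015% to 0.1651% in treated 13TN and 0.0854% to 0.183% in untreated 13TN. Of 31 tested genes of the oxidative phosphorylation list, which does not hold mt-Nd2, none was called.

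The clock genes Per3, Tef and Usp2 were among the calls below 0. The circadian clock is a loop in which Clock and Arntl drive the Period and Cryptochrome genes that restrain them, with Nr1d1 and Nr1d2 as a second arm and the factors Dbp and Tef as outputs. Per3, a Period gene (chr4:151003652-151044665, minus strand), was at 21.9, 27.8 and 27.7 CPM in treated and 43.7, 59.6 and 38.1 CPM in untreated 14559TN tumours, and at 88.6, 76.7 and 88.9 CPM in treated and 50.9, 40.4 and 36.3 CPM in untreated 13TN tumours. The untreated clones overlapped, and under drug all 3 tumours of 14559TN went below and all 3 of 13TN above the untreated range. Per3 responded by -0.86 (SE 0.22, adjusted p = 0.00266) in 14559TN and 0.99 (SE 0.21, adjusted p = 3.64e-04) in 13TN, a difference of -1.85 (SE 0.30, adjusted p = 0.00173) that was called without any single library. Tef, an output factor that binds the D-box (chr15:81802421-81826863, plus strand), was at 96.5, 106 and 155 CPM in treated and 127, 185 and 122 CPM in untreated 14559TN tumours, and at 219, 189 and 213 CPM in treated and 131, 102 and 74.5 CPM in untreated 13TN tumours. Tef was called higher in 13TN and was not called in 14559TN, and its difference was -1.29 (SE 0.28, adjusted p = 0.0226), called in 5 of the 12 fits (adjusted p up to 0.0923). Usp2, a deubiquitinase under clock control, was at 61.9, 64.1 and 67.4 CPM in treated and 108, 111 and 106 CPM in untreated 14559TN tumours, and at 90.4, 89.1 and 123 CPM in treated and 82.3, 92.3 and 63.1 CPM in untreated 13TN tumours. Usp2 was called lower in 14559TN and was not called in 13TN, with a difference of -1.09 (SE 0.26, adjusted p = 0.0408), called in 2 of the 12 fits (adjusted p up to 0.135).

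The clock list was put together after these 3 genes had been seen, so their count is a description. Of 17 tested clock genes, 3 were called, beside 0.444% over all genes. The difference lay below 0 for 11 of the 17, beside 6664 of 13286 over all genes. Its median was -0.62, against -0.003 over all genes. Dbp was at 20.2, 42.4 and 47.4 CPM in treated and 53.6, 70.4 and 49.2 CPM in untreated 14559TN tumours, and at 46.5, 55.8 and 50.4 CPM in treated and 45.0, 38.9 and 41.2 CPM in untreated 13TN tumours, a difference of -0.93 (SE 0.41, adjusted p = 0.482). Nr1d1 was at 3.41, 8.56 and 2.86 CPM in treated and 20, 32.3 and 22.9 CPM in untreated 14559TN tumours, and at 14.2, 15.4 and 13.6 CPM in treated and 37.5, 18.9 and 17.2 CPM in untreated 13TN tumours, a difference of -1.50 (SE 0.45, adjusted p = 0.153). Nr1d2 fell in 14559TN (-0.76, SE 0.16, adjusted p = 4.85e-04) and was not called in 13TN (-0.14, SE 0.16, adjusted p = 0.549), and its difference of -0.62 (SE 0.23, adjusted p = 0.292) missed the threshold. Per1 and Per2 differed by -0.01 (SE 0.27, adjusted p = 1.00) and -0.71 (SE 0.49, adjusted p = 0.745), and the drivers Clock and Arntl by 0.30 (SE 0.20, adjusted p = 0.737) and 0.83 (SE 0.43, adjusted p = 0.608). Rora, which activates Arntl, went the other way, with 1.88 (SE 0.34, adjusted p = 1.19e-04) in 14559TN, 0.23 (SE 0.38, adjusted p = 0.690) in 13TN and a difference of 1.65 (SE 0.52, adjusted p = 0.175). The time of day at which each tumour was taken is not given in the labels.

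**Figure D3:**
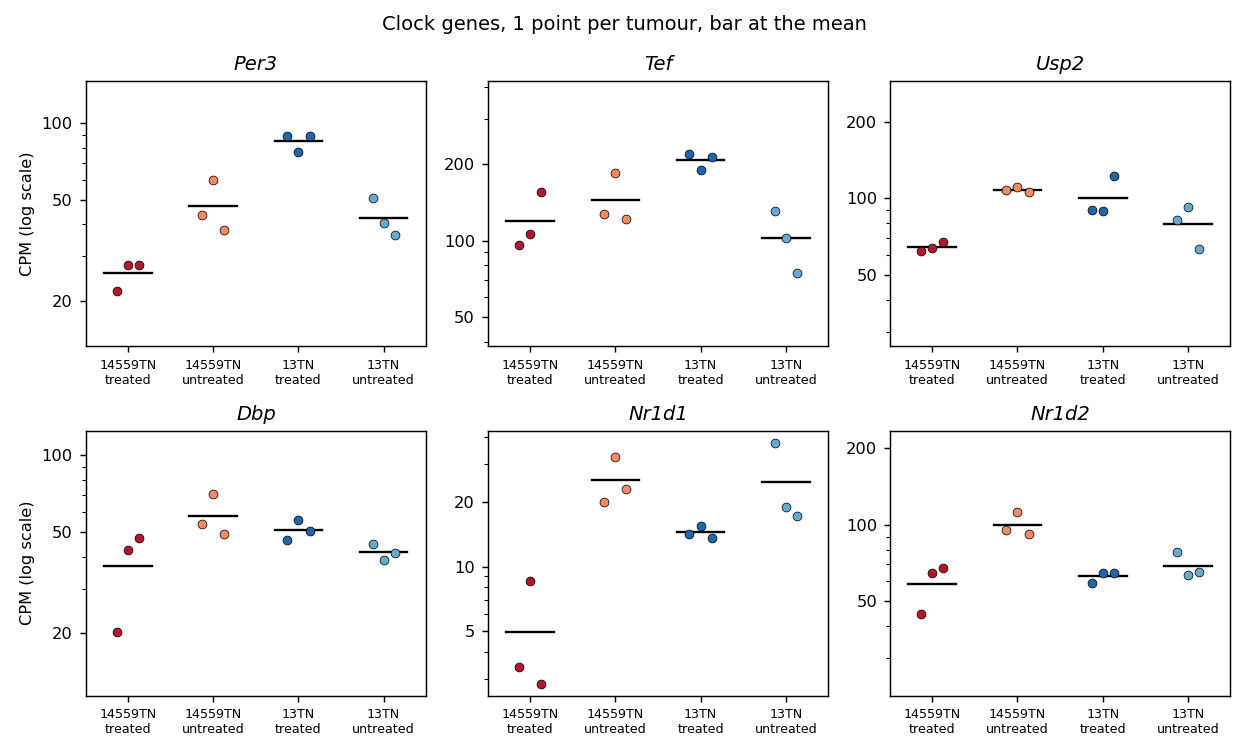
Level of 6 clock genes in CPM (log scale) in the 12 tumours, by group, with 1 point per tumour and a bar at the mean of the 3 tumours. Per3 was at 21.9 to 27.8 CPM in treated 14559TN and 76.7 to 88.9 CPM in treated 13TN, with the untreated groups between them; Tef, Usp2 and Per3 were called in the difference and Dbp, Nr1d1 and Nr1d2 were not.

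The proximal promoters of Per3 and Tef are shown because the clock acts through short elements there, and these are the clock genes among the calls that hold one. Promoters are the 250 bases before a RefSeq transcript start on GRCm38.p6, available for 42 of the 59 called genes. The E-box searched was CACGTG, bound by Clock with Arntl, and the D-box TTATGTAA or TTACGTAA, bound by Dbp and Tef, on both strands. Capitals mark a match. Per3 is read from the minus strand at chr4:151044666-151044915, and the 2 Tef starts from the plus strand at chr15:81802423-81802672 and chr15:81811164-81811413.
Per3: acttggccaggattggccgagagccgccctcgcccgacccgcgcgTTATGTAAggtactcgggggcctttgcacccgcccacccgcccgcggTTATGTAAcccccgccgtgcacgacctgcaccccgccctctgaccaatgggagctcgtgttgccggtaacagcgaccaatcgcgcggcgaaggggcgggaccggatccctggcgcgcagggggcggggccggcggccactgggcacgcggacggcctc
Tef, first start: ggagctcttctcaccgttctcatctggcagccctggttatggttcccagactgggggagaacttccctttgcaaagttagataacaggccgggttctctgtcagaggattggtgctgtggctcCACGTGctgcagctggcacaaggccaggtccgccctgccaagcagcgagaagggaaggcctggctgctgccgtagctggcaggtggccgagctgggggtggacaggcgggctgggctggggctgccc
Tef, second start: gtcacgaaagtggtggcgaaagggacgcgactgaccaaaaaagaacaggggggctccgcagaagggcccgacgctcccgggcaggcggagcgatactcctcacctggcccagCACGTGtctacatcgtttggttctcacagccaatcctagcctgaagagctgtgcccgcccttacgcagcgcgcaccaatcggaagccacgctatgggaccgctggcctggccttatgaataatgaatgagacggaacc
The Per3 window held 2 D-boxes, beginning 205 and 158 bases before the start, and each Tef window held 1 E-box. The windows of Usp2 and of the uncalled clock genes Dbp and Nr1d1 held neither element. A D-box was present in 0.931% of 32851 promoters. Counted by gene, where any promoter of the gene suffices, it was present in 1.1% of 27025 genes. Among the 42 called genes it was present in 2, Per3 and Snx30. An E-box was present in 6.02% of promoters and 6.86% of genes. Among the 42 called genes it was present in 3, Eva1b, Slc16a1 and Tef, which is close to the share of all genes. A match is a run of letters and not a measured site.

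All 28 tested mitosis genes fell in both clones, with a median of -3.21 in 14559TN and -3.98 in 13TN. Over all genes, 16.0% fell in 14559TN and 17.4% in 13TN. The median difference of the mitosis genes was 0.79 against -0.003 over all genes. Of the 28, 25 lay above 0, beside 6600 of 13286 over all genes, and 1, Nusap1, was called, beside 0.444%. Nusap1, a spindle protein, averaged 3.42 ± 1.02 CPM in treated and 22.8 ± 1.10 CPM in untreated tumours in 14559TN and 1.80 ± 0.213 CPM in treated and 44.7 ± 4.41 CPM in untreated tumours in 13TN. It differed by 1.88 (SE 0.44, adjusted p = 0.0408), and that call was lost in each of the 12 fits without a library, with an adjusted p of up to 0.184. Mki67, the proliferation marker, was at 7.67, 6.27 and 7.43 CPM in treated and 60.9, 69.1 and 80.7 CPM in untreated 14559TN tumours, and at 3.16, 4.31 and 5.29 CPM in treated and 89.8, 83.8 and 68.6 CPM in untreated 13TN tumours. Its difference was 0.94 (SE 0.45, adjusted p = 0.549). Prc1, which bundles the central spindle, differed by 1.29 (SE 0.33, adjusted p = 0.0625) and the mitotic kinase Cdk1 by 1.13 (SE 0.33, adjusted p = 0.138). All 28 tested DNA replication genes fell in both clones as well, with a median of -1.76 in 14559TN and -2.31 in 13TN. Their median difference was 0.41 and none was called; the smallest adjusted p was that of the licensing factor Cdt1, at 1.02 (SE 0.28, adjusted p = 0.0926). In the Fanconi and recombination repair list, 12 of 17 tested genes fell in 14559TN and 14 of 17 in 13TN, with a median difference of 0.93 and no call. Of called genes outside these lists, the spindle protein Troap differed by 2.31 (SE 0.55, adjusted p = 0.0408) and the nuclear lamina protein Tmpo by 1.01 (SE 0.24, adjusted p = 0.0408). Each was called in 3 of the 12 fits (adjusted p up to 0.190 and 0.142). Nusap1 and Prc1 were lower in untreated 14559TN than in untreated 13TN, at -0.97 (adjusted p = 0.00331) and -0.68 (adjusted p = 0.0198), and the treated clones were not called different in either. The summed mitosis list was at 189 to 260 CPM in treated 14559TN, 1326 to 1603 CPM in untreated 14559TN, 155 to 202 CPM in treated 13TN and 2007 to 2025 CPM in untreated 13TN.

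**Figure D4:**
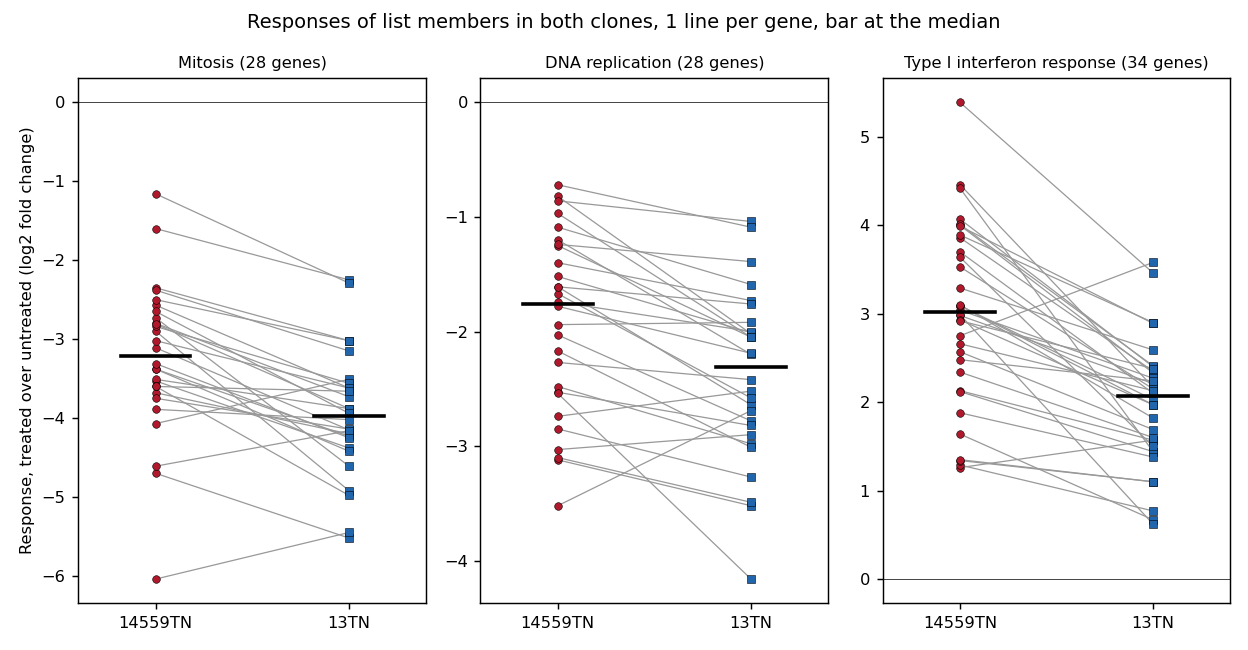
Response, as log2 fold change of treated over untreated tumours, of each tested member of 3 gene lists in 14559TN and 13TN, with a line joining a gene and a black bar at the list median. Mitosis (28 genes) and DNA replication (28) fell in both clones with medians closer to 0 in 14559TN, and the type I interferon genes (34) rose in both with medians of 3.02 in 14559TN and 2.07 in 13TN.

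Interferon-stimulated genes rose in both clones, with higher medians in 14559TN, and no single gene passed the test of the difference. Of 34 tested genes of the type I interferon response, 33 rose in 14559TN, beside 12.4% of all genes, and 31 in 13TN, beside 13.6%. Their median responses were 3.02 in 14559TN and 2.07 in 13TN. The median difference was 0.97, and 32 of 34 lay above 0, beside 6600 of 13286 over all genes. An unadjusted p under 0.05 was reached by 8 of the 34, beside 8.86% of all genes. The levels of the 34 genes summed to 4191, 4040 and 4099 CPM in treated and 532, 672 and 812 CPM in untreated 14559TN tumours, and to 5961, 6369 and 3322 CPM in treated and 1251, 1135 and 1674 CPM in untreated 13TN tumours. Untreated 14559TN was thus below untreated 13TN, and treated 13TN replicate 3 stood below the other two treated 13TN tumours and below treated 14559TN. The median difference was 0.75 without that library, with 32 of 34 above 0, and 0.61 without untreated 13TN replicate 3, the lowest of the 12 fits without a library. Ifih1, a cytoplasmic sensor of viral RNA, was at 109, 105 and 87.4 CPM in treated and 10.4, 10.8 and 14.1 CPM in untreated 14559TN tumours, and at 118, 126 and 65.2 CPM in treated and 23.9, 17.1 and 35.4 CPM in untreated 13TN tumours. Its difference was 1.06 (SE 0.45, adjusted p = 0.445). Rsad2, the antiviral enzyme viperin, was at 4.83, 7.31 and 5.43 CPM in treated and 0.254, 0.922 and 1.01 CPM in untreated 14559TN tumours, and at 33.6, 22.2 and 15.1 CPM in treated and 12.7, 8.19 and 26.2 CPM in untreated 13TN tumours. The untreated clones differed in Rsad2 by -4.37 (adjusted p = 9.59e-05), and the difference in response was 2.38 (SE 0.92, adjusted p = 0.351). Usp18, which restrains interferon signalling, differed by 2.14 (SE 0.81, adjusted p = 0.340). Macrophage markers summed to 73.5 to 139 CPM in treated 14559TN, 26.1 to 94.3 CPM in untreated 14559TN, 32.4 to 87.1 CPM in treated 13TN and 46.6 to 79.4 CPM in untreated 13TN, and their part was not tested. In the list of interferon GTPases 14 of 15 tested genes rose in each clone, with a median difference of 0.58 and no call. That median was 0.09 without untreated 14559TN replicate 1, 0.14 without treated 13TN replicate 3 and -0.13 without untreated 13TN replicate 3. Class I antigen presentation had a median difference of -0.01 and class II of 0.85, with no call among 19 and 7 tested genes.

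Several metabolic and stress lists leaned to either side, and no tested member of those given here was called in the difference. Over all genes, 16.0% fell in 14559TN and 17.4% in 13TN. Genes of the ATF4 amino acid response fell in 10 of 24 tested members in 14559TN and 19 of 24 in 13TN, with a median difference of 0.62 and no call. Ddit3, the stress factor CHOP, was at 86.3, 88.2 and 92.0 CPM in treated and 126, 99.3 and 66.6 CPM in untreated 14559TN tumours, and at 54.8, 65.1 and 60.4 CPM in treated and 219, 132 and 191 CPM in untreated 13TN tumours, a difference of 1.46 (SE 0.36, adjusted p = 0.0619). In the glycolysis and hypoxia list the median difference was 0.24 and none of 25 was called. Ndrg1, induced by hypoxia, was at 83.5, 40.9 and 49.4 CPM in treated and 9.64, 16.3 and 18.2 CPM in untreated 14559TN tumours, and at 17.1, 29.9 and 38 CPM in treated and 54.8, 32.7 and 62.8 CPM in untreated 13TN tumours. Its difference was 2.79 (SE 0.64, adjusted p = 0.0517), and that of the glucose transporter Slc2a1 was 1.69 (SE 0.45, adjusted p = 0.106). Sterol synthesis fell in 23 of 24 tested genes in 14559TN and 20 of 24 in 13TN, with a median difference of -0.51. Fatty acid synthesis had a median difference of -0.58 over 13 tested genes, and 6 reached an unadjusted p under 0.05, beside 8.86% of all genes. Elovl6, a fatty acid elongase, was at 10.5, 17.8 and 10.0 CPM in treated and 52.0, 37.5 and 53.2 CPM in untreated 14559TN tumours, and at 29.1, 31.8 and 14.6 CPM in treated and 32.1, 30.5 and 37.5 CPM in untreated 13TN tumours, a difference of -1.48 (SE 0.38, adjusted p = 0.0619). Ribosome biogenesis genes fell in 19 of 25 in 14559TN and 11 of 25 in 13TN, with a median difference of -0.38. Tsr1, a ribosome assembly factor, came closest to the threshold, at -0.94 (SE 0.23, adjusted p = 0.0517). Heat shock chaperones fell in 9 of 15 tested genes in 14559TN and 6 of 15 in 13TN, with 1 rise in 13TN and a median difference of -0.38.

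**Figure D5:**
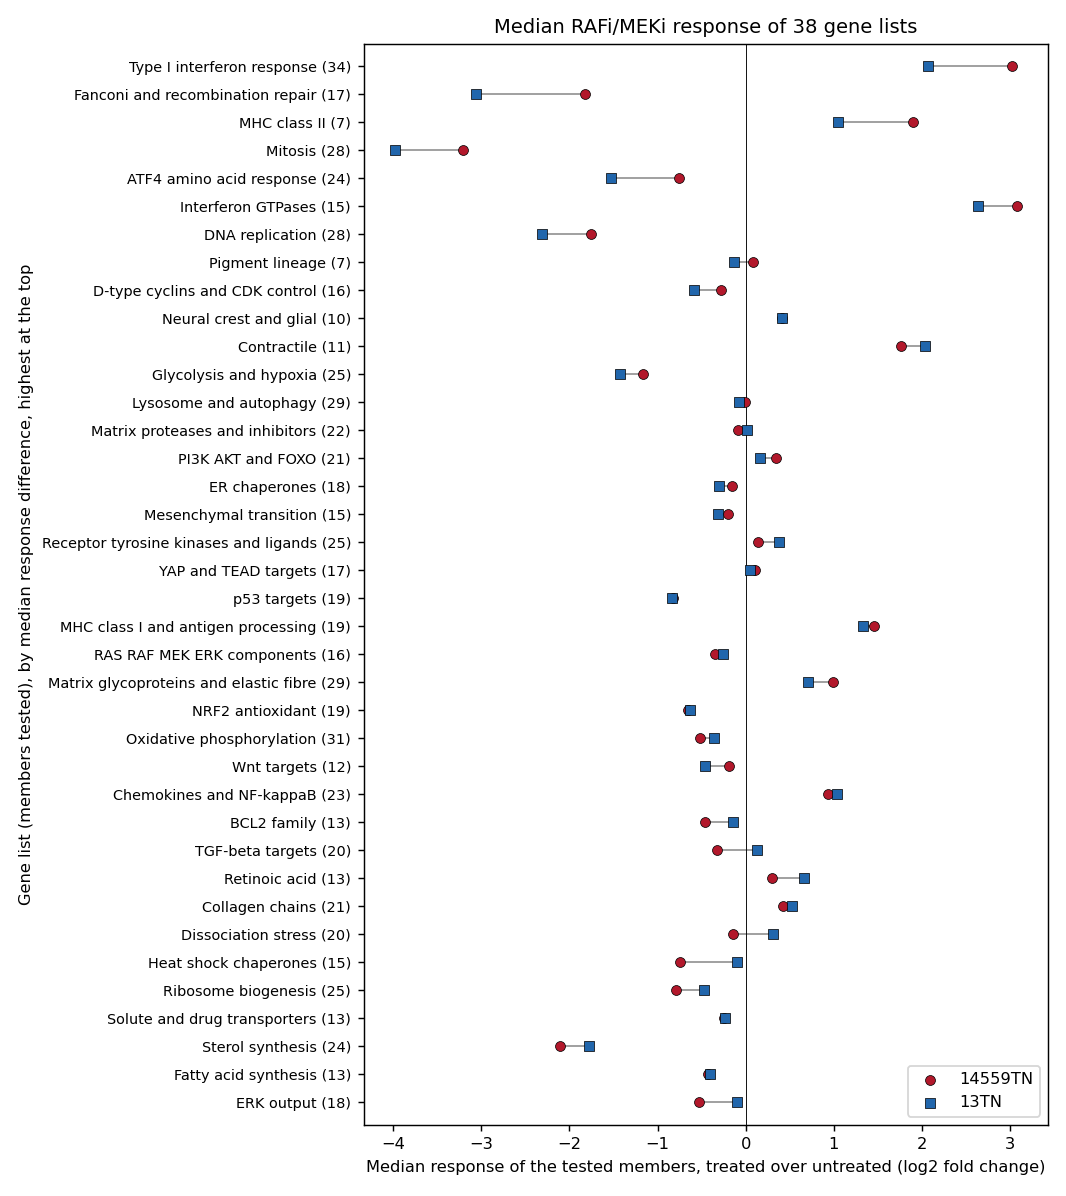
Median response, as log2 fold change of treated over untreated tumours, of the tested members of 38 gene lists in 14559TN (circles) and 13TN (squares), with the number tested in brackets and lists ordered by their median response difference. The type I interferon, Fanconi repair, class II and mitosis lists lie at the top with median differences of 0.97, 0.93, 0.85 and 0.79, and the ERK output and fatty acid lists at the foot with -0.58 each.

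Across the 38 lists, 703 distinct genes were tested and 7 were called in the difference, 0.996% against 0.444% of all genes. They were Phlda1, Nusap1, Csrp1, Sox9, Cdh2, Slc16a1 and Dhrs3, each on 1 of 7 lists, and 31 lists held no call. Median differences ran from -0.58 to 0.97. The following genes, which are much studied in melanoma, were not called. Mitf differed by 0.36 (SE 0.32, adjusted p = 0.834), the receptor kinase Axl by 0.04 (SE 0.18, adjusted p = 0.988), the angiogenic factor Vegfa by -0.20 (SE 0.20, adjusted p = 0.861) and Spry2 by -0.24 (SE 0.21, adjusted p = 0.827). Ogn and Acta2, a matrix proteoglycan and smooth muscle actin that rose strongly in both clones, differed by -0.31 (SE 0.85, adjusted p = 0.968) and 1.18 (SE 0.91, adjusted p = 0.791), with standard errors too wide to show equal responses. The 21 tested collagen chains included no call, with a median difference of -0.28, although collagens summed to 14849 to 16132 CPM in untreated 14559TN and 10536 to 12193 CPM in untreated 13TN.

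Further called genes are given by value. Etv6, an ETS repressor, fell in 14559TN and differed by -0.92 (SE 0.20, adjusted p = 0.0256). Wasf2, which promotes branched actin, differed by -0.77 (SE 0.18, adjusted p = 0.0451), and Eva1b by -0.87 (SE 0.21, adjusted p = 0.0492). The adhesion molecule Alcam fell in both clones and differed by 1.02 (SE 0.23, adjusted p = 0.0285). These 4 calls held in 3, 2, 2 and 4 of the 12 fits (adjusted p up to 0.0911, 0.127, 0.137 and 0.108).

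Malat1, an abundant nuclear RNA, made up 1.7606% to 2.4042% of counts in treated 14559TN, 1.2124% to 1.3319% in untreated 14559TN, 2.7103% to 3.4994% in treated 13TN and 1.2219% to 1.3166% in untreated 13TN. Its share was thus highest in treated 13TN, the group that also held the highest Phlda1, Per3 and Csrp1, and its part in the differences was not tested. The response difference of another clone, 2646TN minus 14559TN, was called for 1867 genes (14.1%). That contrast shares the 6 libraries of 14559TN with the one described here, so no overlap was computed. The 2646TN response of Slc16a1 was -0.54 (SE 0.17), beside -2.38 in 14559TN and -0.23 in 13TN. That of Igfbp3 was -1.31 (SE 0.35), beside -0.85 in 14559TN and -3.66 in 13TN. That of Per3 was -0.85 (SE 0.22), beside -0.86 in 14559TN and 0.99 in 13TN.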

How the data were processed

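Sorted cancer cells from tumours were profiled by 3′-end mRNA sequencing (QuantSeq, per the labels' protocols). The authors deposited, for each library, a raw count of reads per gene, made with STAR 2.6.0c and featureCounts 1.6.2 on GRCm38, per the submitters' processing notes, with strand used in counting per the file headers. Each file lists 54532 genes, of which 54409 were given a symbol.

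Counts of all 30 libraries in 10 groups were fitted together with edgeR 4.0.16 (R 4.3.3; TMM factors, filtering by expression within groups, robust quasi-likelihood test, 20 residual degrees of freedom), leaving 13286 genes. The 6 groups of other clones enter the filter and the shared spread and no contrast described, except that of 2646TN. A call is a Benjamini-Hochberg adjusted p under 0.05 over those genes, and SE is the standard error of a log2 value. The biological coefficient of variation was 18.2%. The pipeline was tested on simulated data. Replicates of a group correlated at Spearman 0.94 to 0.9495 and differed by more than counting error, with a chi-square per degree of freedom of 3.259 to 11.611. The labels do not say whether replicates are separate animals, so p-values measure only the spread between these samples, which may be technical. Replicate numbers are names in accession order.

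The members, lists and tests were chosen with earlier results of these data known, and the clock, insulin-like growth factor, BMP and p53 locus lists after these values were seen. Genes were named if they were called in the fit and in every fit without a library, with at least 5 CPM in a group (up to 12 per direction), were among the 10 smallest adjusted p, were among the 4 smallest of a list, or moved in opposite directions (up to 6 per direction); 13 further genes were fixed by name. The other called genes, and genes of the 4 later lists, were named after their values were seen, and 1 called gene is not reported here. DESeq2 1.42.0, limma-voom (limma 3.58.1), median-of-ratios factors, no filter on low counts, a fit of 12 libraries and the omission of each library were the alternatives. Gene positions are those of the deposited files, and promoter windows are from RefSeq GRCm38.p6.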

Additional observations from a re-analysis of the deposited data

Results flagged for a closer look

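The response difference was tested by the interaction term of clone and treatment (edgeR quasi-likelihood test, adjusted p under 0.05 over all genes), and genes that passed it are given with their log2 difference, 14559TN minus 13TN. Where the called responses were opposite, the level was raised in 14559TN and lowered in 13TN for Flna (0.81), Hist3h2a (1.05), Fam171a1 (1.24), Rftn2 (1.35), Gpsm1 (1.60), Ptchd1 (2.16), F730043M19Rik (2.41) and Il33 (3.63). It was lowered in 14559TN and raised in 13TN for Dio2 (-3.34), Thbd (-2.33), Per3 (-1.85), Map3k6 (-1.82), mt-Nd2 (-1.78), Igfbp4 (-1.62) and Fam43a (-1.39). Where both called responses ran in the same direction, the differences above 0 were those of Tmpo (1.01), Alcam (1.02), Angptl2 (1.24), Nusap1 (1.88), Troap (2.31), Slc14a1 (2.47), Grem1 (2.67) and Igfbp3 (2.81), and those below 0 were Gdpd2 (-2.84), Adamts9 (-1.93), Hivep3 (-1.93), Scara5 (-1.67), Dhrs3 (-1.41), Wdfy2 (-1.21) and Csrp1 (-1.17). A response called in 14559TN and not in 13TN accompanied the differences of Stk3 (0.78), Slc12a2 (1.12), Ankrd44 (1.28), Tmem158 (1.53), Nedd9 (2.03), Adamtsl5 (2.04) and Masp1 (2.45) above 0 and of Slc16a1 (-2.14), Usp2 (-1.09), Camkk2 (-1.08), Por (-0.98), Etv6 (-0.92) and Wasf2 (-0.77) below 0. A response called in 13TN and not in 14559TN accompanied those of Sox9 (1.15), Camk1d (1.22), Snx30 (1.33), Pank1 (1.47), Man1a (1.72), Cdh2 (1.73), Lancl3 (2.05), Adam8 (2.97), Trp53cor1 (3.01), Tspyl5 (3.61) and 8430423G03Rik (3.63) above 0 and of Spon2 (-3.24), Tef (-1.29), Phlda1 (-1.23) and Eva1b (-0.87) below 0. In all, 59 of 13286 genes (0.444%) passed, and groups of 3 tumours were too small to be screened for single stray samples.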

How the results depend on the processing

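The count of 59 called differences depended on the procedure. It was 154 with DESeq2 (84 above 0 and 70 below, all 59 among them), 332 without a filter on low counts (57 of the 59 among them), 188 with the 12 libraries alone in the fit (57 among them), 49 with limma-voom (24 above 0 and 25 below, 40 among them) and 59 with median-of-ratios factors. The cause of these changes was not tested. Leaving out 1 library at a time gave 29 to 64 calls. It gave 29 and 33 without untreated 14559TN replicates 1 and 2, 31, 38 and 39 without untreated 13TN replicates 1, 2 and 3, and 37 and 39 without treated 14559TN replicates 1 and 3. The response counts ran from 2762 to 3769 in 14559TN and from 3015 to 4134 in 13TN under the same omissions. Of 58 called genes recomputed under these alternatives, none reversed its direction. Of the genes described, limma-voom did not call Nusap1, Ptchd1, Dhrs3, 8430423G03Rik, Adamts9, Etv6, Adam8, Tmpo, Hist3h2a, Sox9, Nedd9, F730043M19Rik, Stk3, Troap, Trp53cor1, Cdh2, Slc12a2 and Slc14a1. Etv6 and Stk3 were not called without the filter, and Tef and mt-Nd2 were not called in the fit of 12 libraries. Of 150 uncalled genes picked by the naming rule, 48 were called without the filter, 19 with the 12 libraries alone, 14 with DESeq2 and 2 with limma-voom. Other scaling moved the median response by less than 0.1. No paired analysis was possible because the replicate numbers are names in accession order and pair no tumours. Of 2820 genes below 5 CPM, 3 were called; the part of depth in this was not tested.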
